A study of Mus musculus with 24 samples.

Results

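The genes described here are 42 mouse genes of DNA replication and of the G1/S transition, taken by name from a list drawn up with earlier results of these data known, with no threshold on their values, out of 19057 genes that had a probe on the arrays. They were read in sorted cells of the mouse olfactory mucosa, in whole mucosa and in a reference RNA, on 24 Illumina bead arrays. All 42 had a probe, and 37 passed the filter on low signal over the 21 mucosa arrays. That filter asked for a detection p under 0.01 on at least 3 arrays. The 5 genes that did not pass were Orc1, Pola1, Prim1, Pole2 and Ccne2, none of which read above 5.72 on the log2 scale on any mucosa array. With the reference RNA included, Orc1 and Ccne2 passed as well, which gave 39 genes. Of the 37 genes measured in the mucosa, 23 were detected on all 21 arrays.

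A eukaryotic cell copies its genome in a fixed order of steps. In G1 the origin recognition complex, Cdc6 and Cdt1 load the ring of Mcm2 to Mcm7 onto DNA, which licenses an origin. Cyclin D with its kinases and cyclin E with Cdk2 then release the E2F transcription factors from the retinoblastoma proteins, and E2F switches on most of the genes listed here. Cdc45 and the GINS complex join the Mcm ring to make the active CMG helicase, and polymerases, the sliding clamp Pcna and its loader, replication factor C, synthesise the new strands. In the olfactory epithelium, globose basal cells keep dividing in the adult and give rise to immature neurons and then to mature olfactory sensory neurons, which have left the cell cycle. Sustentacular cells are the supporting cells of the same epithelium.

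The mucosa arrays fell into 7 groups of 3 replicates each. OM was whole live mucosa of wildtype F1 mice (129S1/SvImJ x C57BL/6J), sorted only to exclude dead cells with propidium iodide. Sox2GBC was the weakly GFP-positive fraction of heterozygous ∆Sox2-GFP x FVB/NJ offspring, negative for E-cadherin and CD54 and low in scatter. Sus was the strongly GFP-positive, CD54-negative fraction of the same cross, for which neither the scatter gate nor E-cadherin was used. Neurog1-Ctrl was the GFP-positive fraction of heterozygous Neurog1-GFP x FVB/NJ mice, and OMP that of heterozygous ∆OMP-GFP x CD-1 mice, both low in scatter. Neurog1-OBX and OMP-OBX were the same 2 fractions from the mucosa on the operated side, 3 weeks after removal of 1 olfactory bulb, which kills the mature neurons that project to it and raises the output of new ones. All sorted groups were propidium iodide-negative, and all sorted mice carried a GFP allele, while the OM mice did not. Mice were 8 to 12 weeks old, and 2 to 7 mice were pooled for each replicate. The 3 mREF arrays held a commercial universal mouse reference RNA pooled from 11 cell lines and were repeats of 1 RNA. Mouse line and cell stage went together, so that a difference between the Sox2-GFP, Neurog1-GFP and OMP-GFP groups and a difference between strains cannot be told apart.

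Promoter windows are shown first for Mcm3, Mcm5, Mcm6 and Mcm7, the subunits of the Mcm ring whose window held an E2F site, because E2F is the factor class that links the G1/S genes of the list to its replication genes. The windows are those of RefSeq on GRCm38.p6, from 250 bases before the transcription start to 50 bases after it, and 34 of the 42 genes had one. Capitals mark matches to the E2F motif, searched as TTTCCCGC, TTTCGCGC, TTTGCCGC and TTTGGCGC on both strands, with overlapping matches allowed. Each window is written 5′ to 3′ on the strand of its gene, and for Mcm7, which has windows at 2 starts, the one with matches is given.
Mcm3 (chr1:20820263-20820562, minus strand): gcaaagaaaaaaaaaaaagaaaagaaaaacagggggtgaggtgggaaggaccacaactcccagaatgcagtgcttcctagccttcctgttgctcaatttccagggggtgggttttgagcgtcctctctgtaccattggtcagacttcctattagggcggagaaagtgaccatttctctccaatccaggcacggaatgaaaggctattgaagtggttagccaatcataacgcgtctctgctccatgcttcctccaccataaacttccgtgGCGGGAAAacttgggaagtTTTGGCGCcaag
Mcm5 (chr8:75109259-75109558, plus strand): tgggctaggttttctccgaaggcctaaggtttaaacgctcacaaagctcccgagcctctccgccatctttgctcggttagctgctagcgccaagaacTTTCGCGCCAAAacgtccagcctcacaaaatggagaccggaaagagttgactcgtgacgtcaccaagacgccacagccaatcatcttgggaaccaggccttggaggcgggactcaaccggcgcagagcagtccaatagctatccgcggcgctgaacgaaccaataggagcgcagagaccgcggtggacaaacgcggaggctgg
Mcm6 (chr1:128359656-128359955, minus strand): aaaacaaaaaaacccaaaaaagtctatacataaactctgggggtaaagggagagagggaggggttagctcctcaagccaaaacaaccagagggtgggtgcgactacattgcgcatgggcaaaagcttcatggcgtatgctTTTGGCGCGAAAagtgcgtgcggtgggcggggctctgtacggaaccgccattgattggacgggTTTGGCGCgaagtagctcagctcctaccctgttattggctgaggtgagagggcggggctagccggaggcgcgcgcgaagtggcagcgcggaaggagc
Mcm7 (chr5:138171834-138172133, minus strand): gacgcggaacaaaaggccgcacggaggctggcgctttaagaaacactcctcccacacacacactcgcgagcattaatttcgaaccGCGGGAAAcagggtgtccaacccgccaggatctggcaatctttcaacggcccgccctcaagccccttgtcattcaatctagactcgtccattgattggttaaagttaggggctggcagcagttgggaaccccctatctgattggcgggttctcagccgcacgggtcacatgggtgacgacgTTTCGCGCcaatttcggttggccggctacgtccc

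With the first transcribed base counted as 0 and positions before it as negative, the matches of Mcm3 began at 19 and 38 and those of Mcm7 at -165 and 16. Those of Mcm5 began at -153 and -149 and overlapped. Mcm6 had 3, beginning at -110, -106 and -47, of which the first and the second overlapped. At least 1 match stood in the windows of 14 of the 34 genes (41.2%), against 704 of 27025 genes with a window in the table (2.60%). The other 10 genes with a match were Cdc6, Cdk2, Cdt1, Lig1, Orc1, Pola1, Pold1, Pole2, Rfc3 and Uhrf1. The letters were not found in the window of Mcm2. The E2f1 window held none either, but its first bases read as coding sequence of the gene. The promoter before that sequence was thus not searched. CCAAT, the motif of the factor NF-Y, was present in a window of 19 of the 34 genes (55.9%) and of 41.1% of all genes. TTTGAA, the cell cycle homology region of genes that peak in G2 and mitosis, was present in a window of 3 of the 34 (8.82%), against 20.2% of all genes. These are matches of letters, with no measurement of binding.

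Several features of the arrays bear on what follows. Between 33.9% and 48.3% of the 45281 probes were detected on an array, and replicates of a group correlated over all probes with r of 0.949 to 0.992. The noise of the negative controls, worked out from the detection p-values, split the arrays into 4 classes. All Neurog1-Ctrl arrays fell in a single class and all OMP-OBX arrays in a different one, while the arrays of every other group were spread over classes. Class and group thus went together in part. Counts with the class as a block or within classes are given beside the main ones, without shares over all genes. Sus replicate 1 stood apart from the other Sus arrays. Its 37 measured genes lay on average 0.10 below their mean over the 21 arrays, against 0.94 and 1.15 above it in replicates 2 and 3. It had the lowest of the 3 Sus values for 34 of the 37 genes and was more than 1 log2 unit under both others for 16 of them. A list of mitosis genes showed the same split, at -0.11, 2.06 and 2.07, while the sustentacular markers were alike at 2.42, 2.66 and 2.39. Marker genes were set beside the sort labels. Neurog1 was detected on all Neurog1-Ctrl and Neurog1-OBX arrays and on no other mucosa array. Sox2 read 6.72, 6.87 and 5.11 in Sox2GBC, which was sorted as the weakly GFP-positive fraction. It read 8.58, 8.45 and 8.17 in whole mucosa and 9.48, 9.81 and 9.91 in Sus. The probe for Omp, the marker of mature neurons, gave 13.8 or more on every mucosa array, Sox2GBC and Sus included. The probe for Cyp2g1, a sustentacular enzyme, gave 12.5 or more on every mucosa array. The part that carried-over RNA of these cells has in the results was not tested.

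Levels below are the log2 normalized intensity of a gene's probe and are compared between groups, not between genes. Sox2GBC, Neurog1-Ctrl and Neurog1-OBX are called the precursor groups, and OMP and OMP-OBX the OMP-GFP groups. Across the 7 mucosa groups, the group mean over the 37 genes ran from low in the OMP-GFP groups, through whole mucosa and the precursor groups, to highest in Sus. Single genes and the first Sus array departed from this order. OMP or OMP-OBX held the lowest group mean for 30 of the 37 genes, and Sus for 4. The highest group mean was in Sus for 20 of them, in Neurog1-Ctrl for 6, in Neurog1-OBX for 5, in Sox2GBC for 3, in OM for 2 and in OMP for 1. For only 4 of the 20 did every Sus array lie above every array of the next group. As a mean over the 37 genes, the OMP arrays lay 0.61 to 0.76 below the 21-array mean and the OMP-OBX arrays 0.64 to 0.87 below it. The Sox2GBC arrays were 0.06 to 0.49 above it, the Neurog1-Ctrl arrays 0.04 to 0.23 above it and the Neurog1-OBX arrays 0.22 to 0.42 above it. The OM arrays lay at -0.02 to 0.16 from it and the Sus arrays at -0.10 to 1.15, with the first Sus array under every precursor array. In bulk RNA of this kind, fewer cells that express a gene and less of its RNA per cell cannot be told apart.

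**Figure D1:**
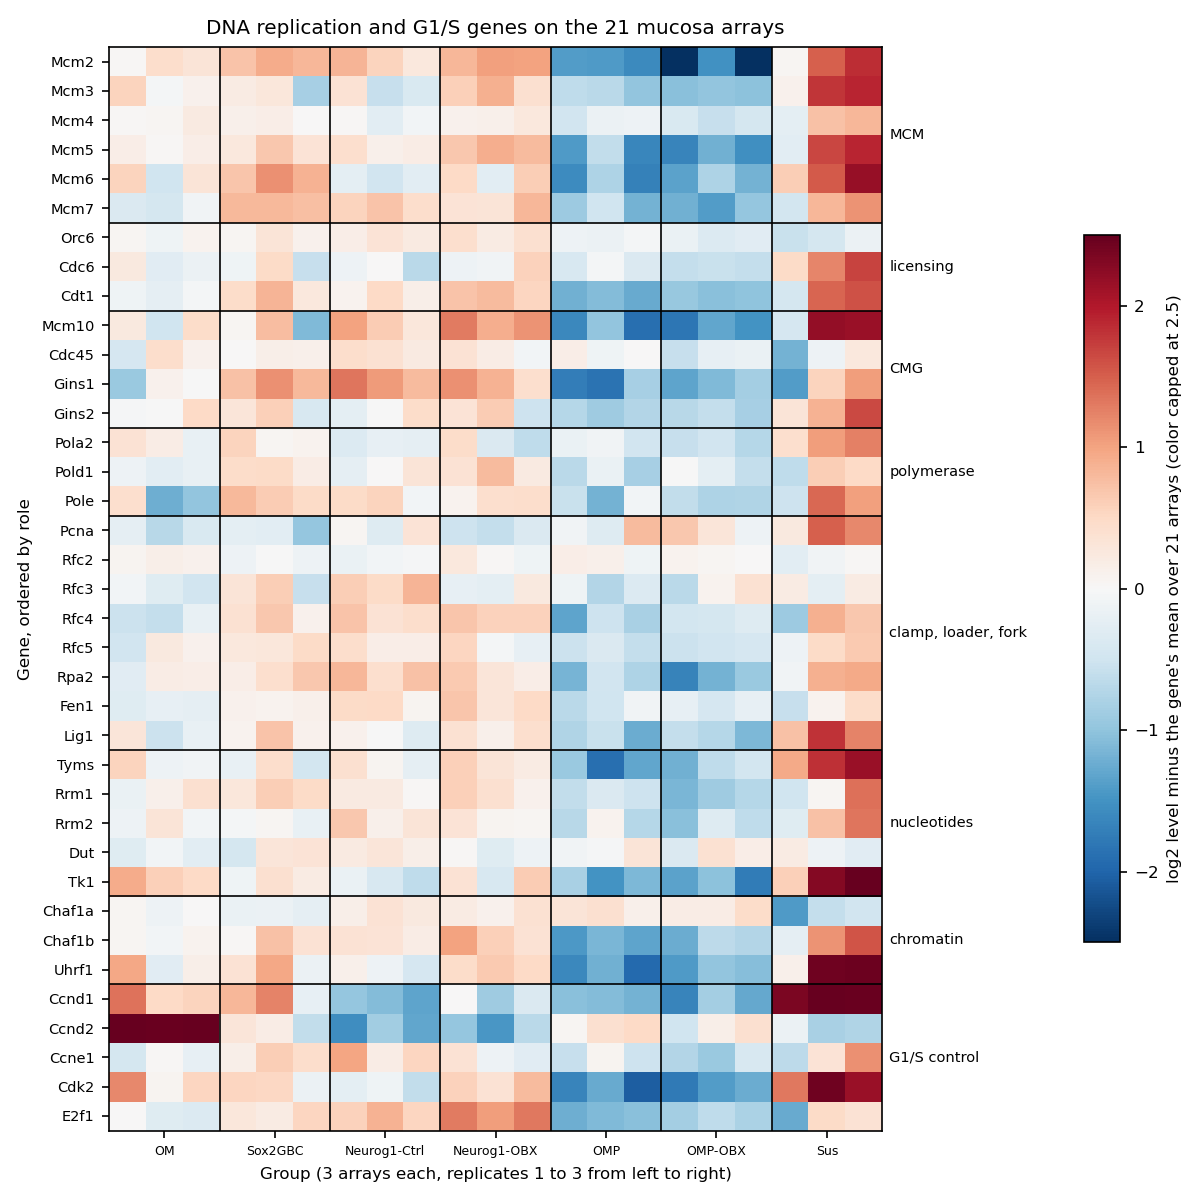
Log2 level of each of the 37 measured genes on each of the 21 mucosa arrays, as the difference from the gene's own mean over those arrays, with genes grouped by role and arrays by group. The 6 arrays of OMP and OMP-OBX are low for most genes, and the first Sus array lies below the other Sus arrays for 34 of the 37.

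The first question of the design is how the sorted stages of the neuronal lineage differ. Between Neurog1-Ctrl and OMP, 19 of the 37 genes were lower in OMP and 1, Ccnd2, was higher, at an adjusted p under 0.05 in limma. Of all 11870 genes tested, 36% were called in either direction, 18.1% as lower and 17.9% as higher. The median difference over the 37 genes was -0.81 on the log2 scale, against 0.02 over all genes. The arrays of OMP and Neurog1-Ctrl did not overlap for 28 of the 37, against 52.2% of all genes. Against Sox2GBC, 22 genes were lower in OMP and none was higher, where 46.9% of all genes were called and 24.2% were lower. The median was then -0.95, against -0.06 over all genes. After bulb removal, OMP-OBX had 21 genes lower and 1 higher than Neurog1-OBX, against 12.3% and 12.6% of all genes and 25% in either direction, with a median of -1.02 against 0.00. The 2 comparisons with OMP share its arrays and are not independent. With the noise class as a block, 15, 19 and 15 genes were called in these 3 comparisons. Within classes the counts were 18, 17 and 17, but there 1 OMP array met 3 Neurog1-Ctrl or 2 Sox2GBC arrays, and 3 OMP-OBX arrays met 1 Neurog1-OBX array, so that each of these counts rests on a single array in 1 group. Among the 23 genes detected on every mucosa array, 13 were lower in OMP than in Neurog1-Ctrl, 15 lower than in Sox2GBC, and 15 lower in OMP-OBX than in Neurog1-OBX. Markers of other cells moved between Neurog1-Ctrl and OMP as well. Of those measured, 8 of 10 immature neuron and 7 of 8 globose basal and precursor markers were lower in OMP, and none was higher. The mean immature neuron level lay 1.02, 1.10 and 1.20 above the 21-array mean in Sox2GBC, Neurog1-Ctrl and Neurog1-OBX. In OMP it lay at -1.24. Higher in OMP were 4 of 7 horizontal basal cell, 3 of 8 sustentacular and 2 of 8 myeloid markers. So were 1 of 5 Bowman's gland and 1 of 4 endothelial and fibroblast markers. Lower were 1 myeloid marker and 1 of 2 T and B cell markers. The mean sustentacular level lay -1.30 from the 21-array mean in Neurog1-Ctrl and -0.40 in OMP. The part of these cells in the differences was not tested.

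Most genes of the Mcm ring were lower in the mature-neuron sort than in the precursors. Of its 6 subunits, Mcm2, Mcm5, Mcm6 and Mcm7 were lower in OMP than in Neurog1-Ctrl and than in Sox2GBC. Mcm2 read 7.42, 7.83 and 7.71 in OM, 8.10, 8.33 and 8.22 in Sox2GBC and 8.24, 7.94 and 7.66 in Neurog1-Ctrl. In Neurog1-OBX it read 8.23, 8.42 and 8.40. The OMP arrays gave 6.00, 5.98 and 5.79, the OMP-OBX arrays 4.64, 5.87 and 4.91 and the Sus arrays 7.44, 8.88 and 9.24. All 6 OMP and OMP-OBX arrays thus lay under every other mucosa array, and Mcm2 was detected on 2 of the 3 OMP arrays and on 1 of the 3 OMP-OBX arrays. OMP minus Neurog1-Ctrl was -2.02 ± 0.35 (SE; adjusted p = 0.000172), a 4.06-fold lower signal. Against Sox2GBC it was -2.29 ± 0.35, adjusted p = 2.89e-05, and OMP-OBX minus Neurog1-OBX was -3.21 ± 0.35, adjusted p = 3.15e-06. The OMP-OBX mean of 5.14 was below the lowest detected signal on each of its arrays (5.70 to 5.86), so that the size of the last difference rests in part on signal at background.

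Mcm5 showed the same order at a narrower spread. It read 9.40, 9.27 and 9.40 in OM, 9.50, 9.91 and 9.58 in Sox2GBC, 9.65, 9.37 and 9.43 in Neurog1-Ctrl and 9.91, 10.14 and 10.03 in Neurog1-OBX. The OMP values were 7.83, 8.63 and 7.60, the OMP-OBX values 7.58, 8.03 and 7.71 and the Sus values 8.98, 10.90 and 11.13. The OMP and OMP-OBX arrays were again the 6 lowest. OMP lay -1.47 ± 0.38 from Neurog1-Ctrl (adjusted p = 0.00532) and OMP-OBX -2.25 ± 0.38 from Neurog1-OBX (adjusted p = 0.000251). Mcm7 gave 7.65, 7.56 and 7.91 in OM, 8.81, 8.82 and 8.75 in Sox2GBC, 8.57, 8.72 and 8.44 in Neurog1-Ctrl and 8.34, 8.33 and 8.83 in Neurog1-OBX. Its OMP values were 7.10, 7.51 and 6.82, its OMP-OBX values 6.79, 6.60 and 7.03 and its Sus values 7.54, 8.83 and 9.12. Every OMP and OMP-OBX array was under every other one, with OMP minus Neurog1-Ctrl at -1.43 ± 0.29, adjusted p = 0.000866. The second Mcm7 probe moved by -0.67 in that comparison and by -0.0040 against Sox2GBC, where the first moved by -1.65.

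Mcm6 differed from the other subunits in where it stepped down. Its arrays read 8.71, 7.67 and 8.47 in OM, 8.85, 9.30 and 9.04 in Sox2GBC and 7.91, 7.67 and 7.89 in Neurog1-Ctrl. Neurog1-OBX gave 8.65, 7.90 and 8.78, OMP 6.58, 7.38 and 6.47, OMP-OBX 6.83, 7.39 and 6.98 and Sus 8.78, 9.70 and 10.34. It was lower already in Neurog1-Ctrl than in Sox2GBC (-1.24 ± 0.35, adjusted p = 0.0205), with no overlap of arrays, and lower again in OMP than in Neurog1-Ctrl (-1.01 ± 0.35, adjusted p = 0.0306). Another Mcm6 probe moved the opposite way between Neurog1-Ctrl and OMP, by 1.33, and between Neurog1-OBX and OMP-OBX, by 0.99. The call of the first step was lost under 5 of the alternatives tried and that of the second under 11. The drop from Sox2GBC to OMP, -2.25 ± 0.35 with an adjusted p of 4.02e-05, was called under all of them.

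Mcm3 and Mcm4 did not pass the test between OMP and either precursor group. Mcm3 was dim: it was detected on all 3 arrays of Neurog1-OBX and Sus, on 1 array each of OM and Sox2GBC and on none of Neurog1-Ctrl, OMP and OMP-OBX. Its values were 6.22, 5.60 and 5.77 in OM, 5.86, 5.94 and 4.83 in Sox2GBC and 6.02, 5.07 and 5.28 in Neurog1-Ctrl. Neurog1-OBX gave 6.26, 6.55 and 6.05, OMP 5.02, 4.98 and 4.67, OMP-OBX 4.60, 4.66 and 4.63 and Sus 5.76, 7.43 and 7.56. Between Neurog1-OBX and OMP-OBX it was at least 1.43-fold lower in the latter (adjusted p = 0.00331), a bound set by the lowest detected signal on each array. Mcm4 varied less. It read 10.72, 10.75 and 10.91 in OM, 10.82, 10.86 and 10.71 in Sox2GBC, 10.73, 10.43 and 10.63 in Neurog1-Ctrl and 10.81, 10.83 and 10.97 in Neurog1-OBX. The OMP arrays gave 10.23, 10.54 and 10.58, the OMP-OBX arrays 10.32, 10.11 and 10.25 and the Sus arrays 10.45, 11.42 and 11.53. Its OMP arrays overlapped those of Neurog1-Ctrl (difference -0.15 ± 0.22, adjusted p = 0.62), and only the OMP-OBX arrays were called as lower, at -0.64 ± 0.22 against Neurog1-OBX (adjusted p = 0.0348). That call was lost under 8 of 20 alternatives, leaving out any 1 of the 6 arrays among them.

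**Figure D2:**
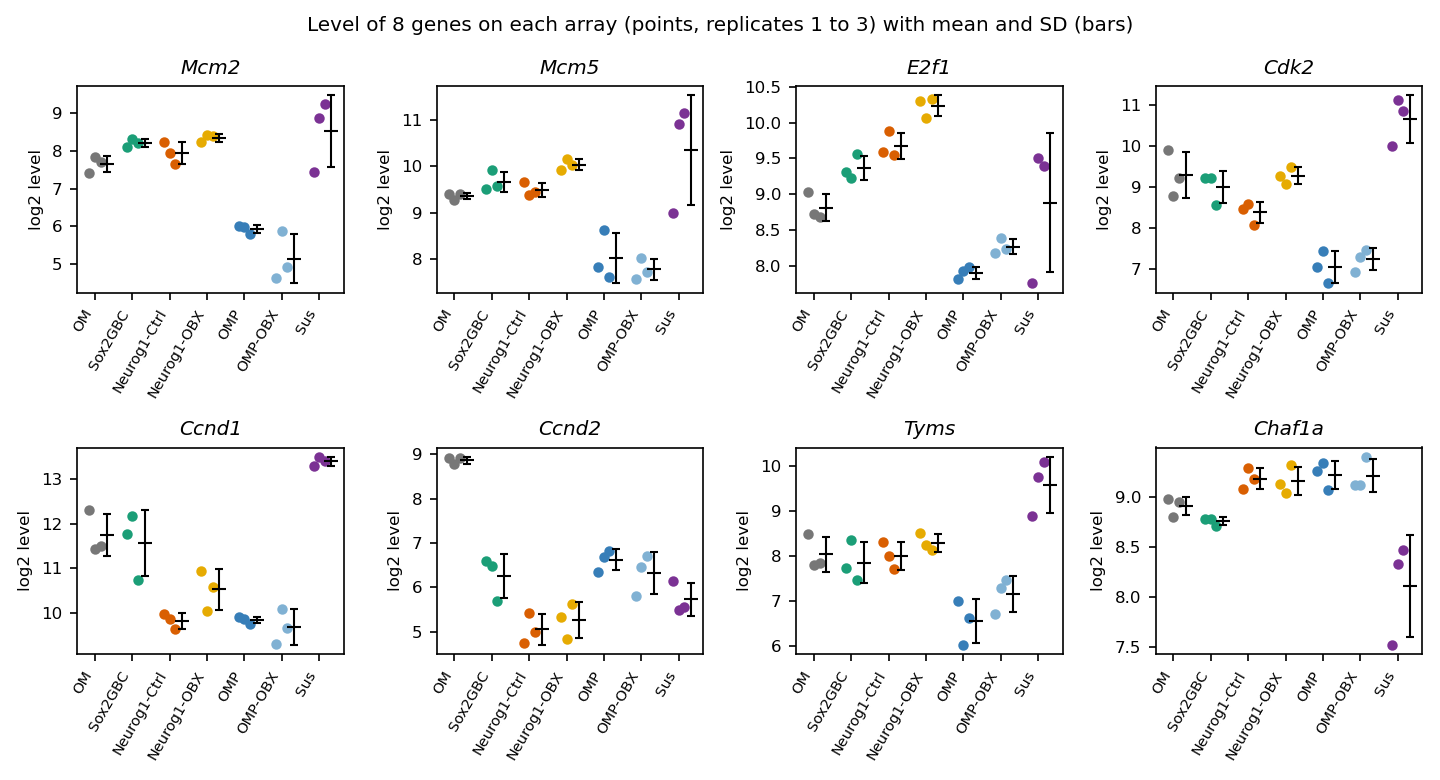
Log2 level of 8 genes (Mcm2, Mcm5, E2f1, Cdk2, Ccnd1, Ccnd2, Tyms and Chaf1a) on each mucosa array, with points for replicates 1 to 3 and bars for the mean and SD of each group (n = 3). Mcm2, Mcm5, Cdk2 and Tyms are lowest in OMP and OMP-OBX, Ccnd1 is highest on all Sus arrays, Ccnd2 is highest in OM, and Chaf1a is lowest in Sus.

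Among the licensing factors, Cdt1 was lower in OMP than in the precursors, and Orc6 and Cdc6 were not called there. Cdt1 delivers the Mcm ring to origins. It read 7.70, 7.57 and 7.75 in OM, 8.26, 8.65 and 8.06 in Sox2GBC, 7.88, 8.30 and 7.94 in Neurog1-Ctrl and 8.51, 8.59 and 8.34 in Neurog1-OBX. In OMP it read 6.59, 6.72 and 6.53, in OMP-OBX 6.85, 6.75 and 6.79 and in Sus 7.36, 9.26 and 9.39. The OMP-GFP arrays were below all others, with differences of -1.42 ± 0.34 from Neurog1-Ctrl and -1.71 ± 0.34 from Sox2GBC (adjusted p = 0.00325 and 0.000476). Orc6, a subunit of the origin recognition complex, was detected on every array and varied little. Its values were 10.42, 10.26 and 10.45 in OM, 10.43, 10.69 and 10.49 in Sox2GBC, 10.53, 10.71 and 10.60 in Neurog1-Ctrl and 10.79, 10.58 and 10.77 in Neurog1-OBX. OMP gave 10.25, 10.22 and 10.31, OMP-OBX 10.22, 10.03 and 10.09 and Sus 9.82, 9.93 and 10.23. The OMP arrays lay under all precursor arrays, but the difference of -0.35 ± 0.15 from Neurog1-Ctrl was not called (adjusted p = 0.0742). Cdc6, which works with Cdt1, was detected on all 3 arrays in Sus alone, and its group means ran from 4.93 in OMP-OBX to 6.64 ± 0.61 (SD, n = 3) in Sus.

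Helicase activation factors split in the same way, with Gins1 and Mcm10 down in OMP and Cdc45 not called. Gins1, a subunit of the GINS complex, differed by -2.54 ± 0.45 between OMP and Neurog1-Ctrl, adjusted p = 0.000228, and was detected on 2 of 3 OMP arrays. It read 6.11, 7.15 and 7.03 in OM, 7.77, 8.18 and 7.85 in Sox2GBC, 8.37, 8.11 and 7.82 in Neurog1-Ctrl and 8.17, 7.90 and 7.46 in Neurog1-OBX. The OMP values were 5.31, 5.19 and 6.20, the OMP-OBX values 5.71, 5.93 and 6.19 and the Sus values 5.63, 7.59 and 8.08. The precursor arrays lay above all OMP and OMP-OBX arrays, while 1 OM array and the first Sus array lay within their range. Cdc45, the other partner of the Mcm ring, read 7.59, 8.46 and 8.11 in OM, 8.03, 8.15 and 8.13 in Sox2GBC, 8.45, 8.39 and 8.23 in Neurog1-Ctrl and 8.38, 8.19 and 7.94 in Neurog1-OBX. OMP gave 8.18, 7.90 and 8.02, OMP-OBX 7.43, 7.81 and 7.83 and Sus 6.82, 7.88 and 8.26. These ranges were close, and OMP minus Neurog1-Ctrl was -0.32 ± 0.28, adjusted p = 0.384. Mcm10, which helps to start the helicase, was -2.12 ± 0.53 from Neurog1-Ctrl (adjusted p = 0.0044) with 2 of 3 OMP arrays detected, and it was undetected on every OMP-OBX array, which made it at least 4.81-fold lower there than in Neurog1-OBX (adjusted p = 0.00123). Its other probe moved less, by -0.59 and -0.84. Gins2, also dim, was at least 1.26-fold lower in OMP than in Sox2GBC (adjusted p = 0.0247), a call lost under 8 of 20 alternatives.

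Of the 6 polymerase and primase genes, 3 were measured, and none of these was called between OMP and Neurog1-Ctrl. Pold1, the catalytic subunit of polymerase delta, read 9.85, 9.72 and 9.79 in OM, 10.44, 10.45 and 10.17 in Sox2GBC, 9.74, 9.99 and 10.29 in Neurog1-Ctrl and 10.34, 10.77 and 10.21 in Neurog1-OBX. Its OMP arrays gave 9.30, 9.82 and 9.14, the OMP-OBX arrays 9.97, 9.73 and 9.38 and the Sus arrays 9.34, 10.59 and 10.47. OMP minus Sox2GBC was -0.93 ± 0.28 (adjusted p = 0.0098). Pola2, a subunit of the polymerase alpha and primase complex, gave 7.44, 7.27 and 6.89 in OM, 7.63, 7.13 and 7.17 in Sox2GBC, 6.73, 6.87 and 6.85 in Neurog1-Ctrl and 7.54, 6.71 and 6.45 in Neurog1-OBX. In OMP it gave 6.91, 6.98 and 6.60, in OMP-OBX 6.50, 6.60 and 6.36 and in Sus 7.50, 8.11 and 8.34. The precursor and OMP ranges of Pola2 overlapped (0.01 ± 0.26, adjusted p = 0.972 for OMP minus Neurog1-Ctrl). Pole, the catalytic subunit of polymerase epsilon, was lower in OMP than in Sox2GBC (-1.24 ± 0.42, adjusted p = 0.0219, detected on 2 of 3 OMP arrays), and OMP minus Neurog1-Ctrl was -0.92 ± 0.42 (adjusted p = 0.0972).

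At the fork, 6 of the 8 genes were lower in OMP than in Neurog1-Ctrl (Rfc3, Rfc4, Rfc5, Rpa2, Fen1 and Lig1), and the exceptions were the clamp Pcna and the loader subunit Rfc2. Pcna, a usual marker of dividing cells, had a single probe that was close to the detection limit. It read 5.43, 4.97 and 5.27 in OM, 5.42, 5.39 and 4.70 in Sox2GBC, 5.71, 5.33 and 5.99 in Neurog1-Ctrl and 5.13, 5.06 and 5.30 in Neurog1-OBX. The OMP arrays gave 5.57, 5.34 and 6.45, the OMP-OBX arrays 6.33, 5.95 and 5.52 and the Sus arrays 5.89, 7.14 and 6.85. It was detected on 1 of 3 arrays in OM and in Neurog1-Ctrl, on none in Sox2GBC and Neurog1-OBX, and on 2 of 3 in OMP and in OMP-OBX, so that it did not follow the other fork genes. OMP minus Neurog1-Ctrl was 0.11 ± 0.32, adjusted p = 0.819. In the reference RNA the same probe gave 7.85, 9.47 and 7.14 in the fit with all 24 arrays.

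Rfc2 was flat, at 11.81, 11.90 and 11.85 in OM, 11.62, 11.74 and 11.63 in Sox2GBC, 11.59, 11.68 and 11.72 in Neurog1-Ctrl and 12.01, 11.79 and 11.65 in Neurog1-OBX. OMP gave 11.91, 11.89 and 11.65, OMP-OBX 11.85, 11.79 and 11.76 and Sus 11.49, 11.66 and 11.79. No comparison among the mucosa groups called it. Fen1, the nuclease that trims Okazaki fragments, read 9.93, 10.03 and 10.01 in OM, 10.35, 10.33 and 10.36 in Sox2GBC, 10.71, 10.73 and 10.30 in Neurog1-Ctrl and 10.93, 10.52 and 10.72 in Neurog1-OBX. Its OMP values were 9.55, 9.73 and 10.14, its OMP-OBX values 10.02, 9.82 and 10.03 and its Sus values 9.65, 10.32 and 10.69. All 9 precursor arrays exceeded all 6 OMP-GFP arrays, and OMP minus Neurog1-Ctrl was -0.77 ± 0.22 (adjusted p = 0.0107). Among the subunits of the clamp loader, OMP minus Neurog1-Ctrl was -1.38 for Rfc4 and -0.75 for Rfc5, and their other probes moved by -0.67 and -0.30. Rfc3 was detected on 3 of 3 Neurog1-Ctrl arrays and on 1 of 3 in OMP, where its mean of 5.16 was below the lowest detected signal of every array (5.22 to 5.89), so that its difference of -1.05 rests in part on signal at background. For Rpa2, a subunit of the single-strand binding protein, the difference was -1.47 ± 0.27 with the brightest probe (adjusted p = 0.000349) and 0.06 and 0.0028 with both other probes. Lig1, the ligase that seals the fragments, gave -0.77 ± 0.28, adjusted p = 0.0361 with its brightest probe and -0.18 and -0.26 with others. The call of Lig1 was lost under 11 of 20 alternatives, among them cyclic loess, median scaling, no filter and leaving out any 1 of 4 arrays.

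Enzymes of nucleotide supply fell in part. Thymidylate synthase, Tyms, was lower in OMP than in Neurog1-Ctrl (-1.45 ± 0.32, adjusted p = 0.00181), and Tyms, Rrm1 and Tk1 were lower in OMP than in Sox2GBC. Rrm1, the large subunit of ribonucleotide reductase, read 8.89, 9.17 and 9.44 in OM, 9.32, 9.66 and 9.53 in Sox2GBC, 9.27, 9.27 and 9.07 in Neurog1-Ctrl and 9.65, 9.45 and 9.16 in Neurog1-OBX. It read 8.43, 8.68 and 8.54 in OMP, 7.90, 8.15 and 8.33 in OMP-OBX and 8.55, 9.10 and 10.41 in Sus. The OMP-GFP arrays were below those of OM and all precursor groups, and OMP minus Sox2GBC was -0.95 ± 0.31, adjusted p = 0.0168. Dut, which breaks down dUTP, gave 7.79, 8.02 and 7.83 in OM, 7.65, 8.40 and 8.43 in Sox2GBC, 8.32, 8.40 and 8.24 in Neurog1-Ctrl and 8.12, 7.78 and 7.97 in Neurog1-OBX. OMP gave 8.01, 8.06 and 8.41, OMP-OBX 7.73, 8.47 and 8.25 and Sus 8.29, 7.97 and 7.81. Its group means lay between 7.88 and 8.32, and no comparison within the mucosa called it. Tk1, the thymidine kinase of dividing cells, went from 6.71 ± 0.27 (SD, n = 3) in Sox2GBC to 5.40 ± 0.34 in OMP (adjusted p = 0.01), where 1 of 3 arrays detected it. Rrm2, the small subunit of the reductase, was called in none of these 3 comparisons. Of the 3 Tyms probes that passed the filter, 1 with a mean of 5.24 moved by -0.13 and -0.21 where the brightest moved by -1.45 and -1.30. The remaining probe moved the same way as the brightest in both comparisons, by at least 0.5 of its size.

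Uhrf1 and Chaf1b fell in OMP, and Chaf1a was not called. Uhrf1 brings the maintenance methyltransferase to newly copied DNA. It read 10.05, 8.81 and 9.23 in OM, 9.44, 10.06 and 8.93 in Sox2GBC, 9.22, 8.97 and 8.67 in Neurog1-Ctrl and 9.54, 9.73 and 9.59 in Neurog1-OBX. OMP gave 7.48, 7.88 and 7.15, OMP-OBX 7.67, 8.10 and 8.02 and Sus 9.21, 11.52 and 11.53. The OMP-GFP arrays were the 6 lowest, with OMP minus Sox2GBC at -1.98 ± 0.46, adjusted p = 0.00164. Chaf1a and Chaf1b are subunits of the factor that places histones behind the fork. Chaf1b was -1.60 ± 0.32 from Neurog1-Ctrl and -1.68 ± 0.32 from Sox2GBC (adjusted p = 0.000693 and 0.000284), with 2 of 3 OMP arrays detected. Chaf1a read 8.98, 8.80 and 8.94 in OM, 8.78, 8.78 and 8.71 in Sox2GBC, 9.08, 9.29 and 9.18 in Neurog1-Ctrl and 9.13, 9.04 and 9.32 in Neurog1-OBX. It read 9.26, 9.34 and 9.07 in OMP, 9.12, 9.12 and 9.40 in OMP-OBX and 7.52, 8.33 and 8.46 in Sus. Its OMP values overlapped those of both Neurog1-GFP groups (OMP minus Neurog1-Ctrl 0.04 ± 0.20, adjusted p = 0.893), and its 3 Sus values were the lowest of all.

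The G1/S control genes had patterns of their own. E2f1, which drives transcription of replication genes, read 9.02, 8.72 and 8.69 in OM, 9.31, 9.23 and 9.56 in Sox2GBC, 9.59, 9.88 and 9.55 in Neurog1-Ctrl and 10.31, 10.07 and 10.33 in Neurog1-OBX. OMP gave 7.81, 7.92 and 7.97, OMP-OBX 8.18, 8.39 and 8.23 and Sus 7.75, 9.50 and 9.39. All OMP-GFP arrays were below all arrays of OM and the precursor groups, and OMP was 3.42-fold below Neurog1-Ctrl (-1.77 ± 0.30, adjusted p = 0.000169). The cyclin E kinase Cdk2 fell in OMP as well, with differences of -1.33 ± 0.31 from Neurog1-Ctrl and -1.96 ± 0.31 from Sox2GBC (adjusted p = 0.00235 and 4.35e-05). Of the 4 Cdk2 probes that passed the filter, those with means of 6.05 and 5.35 moved by -0.51 and -0.07 in the first of these. In the second they moved by -0.80 and -0.06. The remaining probe moved the same way as the brightest in both, by at least 0.5 of its size. Cyclin E1, Ccne1, was detected on all arrays of no group and was at least 1.32-fold lower in OMP than in Neurog1-Ctrl (adjusted p = 0.0388). It was the 1 gene of the 37 that passed the filter on low signal only through a single group, and that group was Neurog1-Ctrl, where it was highest, so that this call is no independent support for a difference. The call was lost under 12 of 19 alternatives.

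The D cyclins, which carry growth signals to the retinoblastoma proteins, moved apart from each other. Ccnd1 was high in Sus, OM and Sox2GBC and low in the Neurog1-GFP and OMP-GFP groups. It read 12.30, 11.44 and 11.50 in OM, 11.77, 12.18 and 10.74 in Sox2GBC, 9.98, 9.86 and 9.63 in Neurog1-Ctrl and 10.95, 10.05 and 10.59 in Neurog1-OBX. The OMP arrays gave 9.90, 9.85 and 9.76, the OMP-OBX arrays 9.29, 10.08 and 9.67 and the Sus arrays 13.29, 13.49 and 13.42. Every Sus array was above every other array, and all Sox2GBC arrays were above all of Neurog1-Ctrl and OMP. Ccnd1 fell between Sox2GBC and Neurog1-Ctrl (-1.74 ± 0.31, adjusted p = 0.000904), a 3.35-fold drop, and OMP minus Neurog1-Ctrl was 0.02 ± 0.31, adjusted p = 0.974. Ccnd2 was highest in whole mucosa, at 8.91, 8.78 and 8.91. Sox2GBC gave 6.60, 6.49 and 5.69, Neurog1-Ctrl 4.75, 5.43 and 4.999 and Neurog1-OBX 5.33, 4.84 and 5.63. It read 6.36, 6.70 and 6.81 in OMP, 5.81, 6.46 and 6.71 in OMP-OBX and 6.16, 5.49 and 5.56 in Sus. No Neurog1-GFP array detected it, and all arrays of OMP and OMP-OBX did, so that it was at least 1.61-fold higher in OMP than in Neurog1-Ctrl (adjusted p = 0.000306) and at least 1.34-fold higher in OMP-OBX than in Neurog1-OBX (adjusted p = 0.00991). The second of these calls was lost under 7 of 20 alternatives, median scaling among them. Of the 3 Ccnd2 probes that passed the filter, the dimmest, with a mean of 4.88, moved by 0.09 and -0.06 in these comparisons. The remaining probe moved the same way as the brightest in both, by at least 0.5 of its size.

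**Figure D3:**
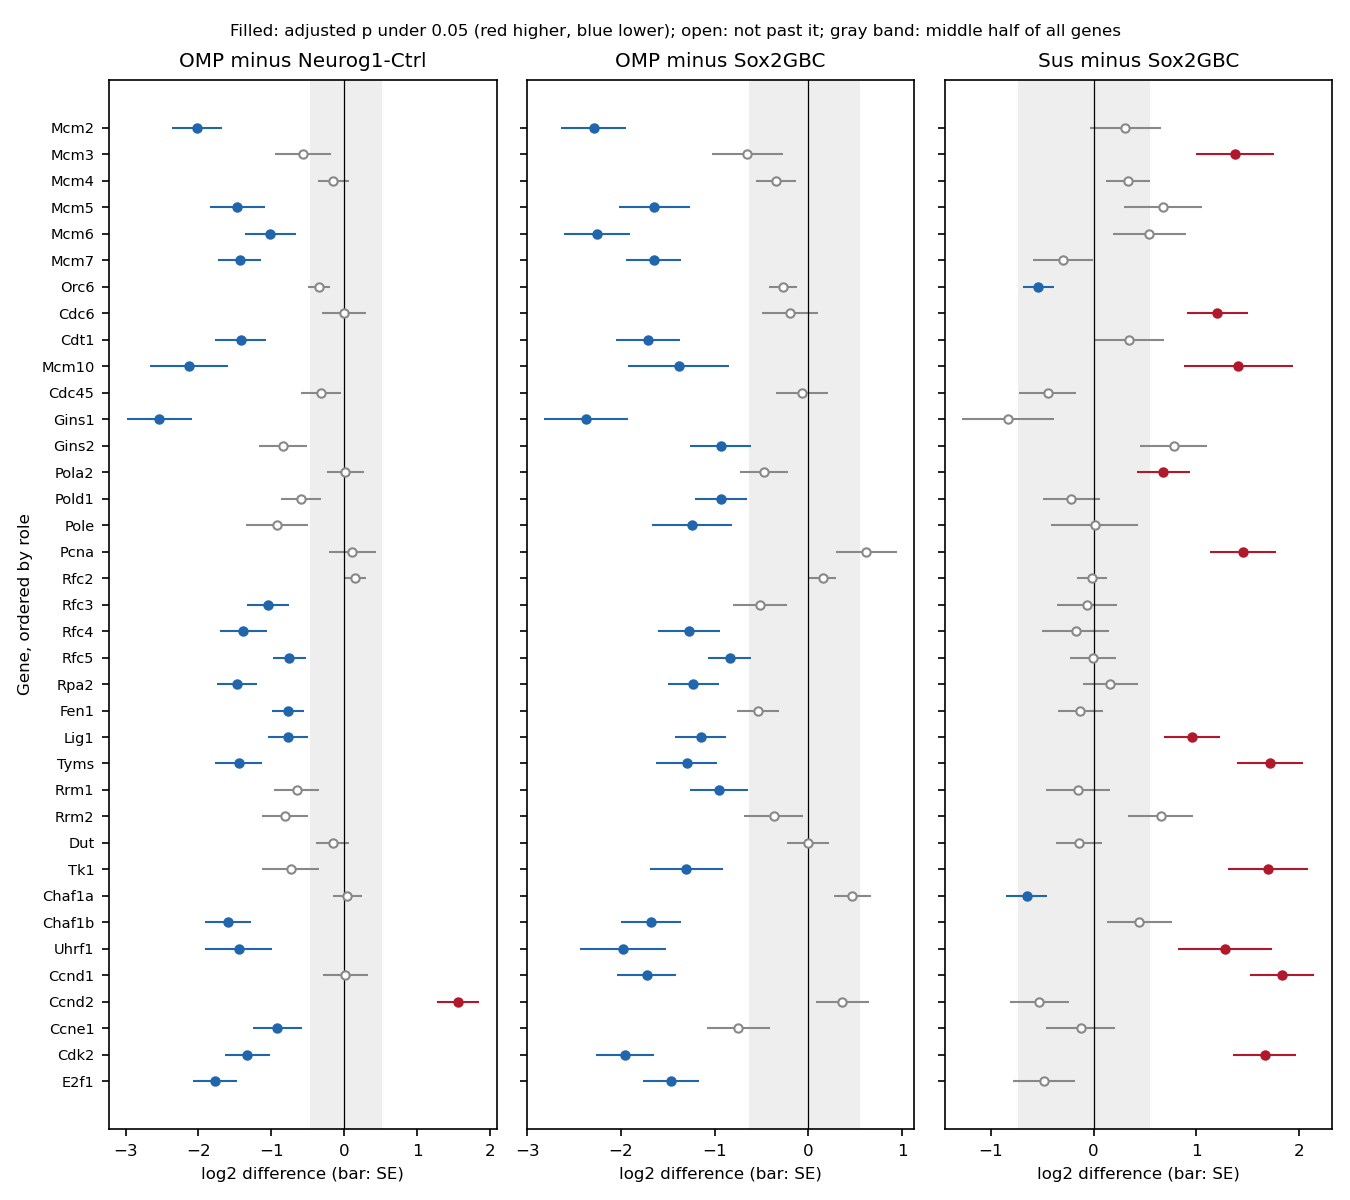
Log2 difference of each of the 37 genes between OMP and Neurog1-Ctrl, OMP and Sox2GBC, and Sus and Sox2GBC, as points with SE bars. Filled points are past an adjusted p of 0.05 in limma, and the gray band runs from the lower to the upper quartile of all genes. Filled points stand left of 0 for 19 and 22 genes in the first and second panel, and right of 0 for 11 genes in the third.

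From Sox2GBC to Neurog1-Ctrl few of the genes differed. Only Ccnd1, Mcm6 and Ccnd2 were called, all as lower in Neurog1-Ctrl, against 17% of all genes in either direction, 7.98% as higher and 9.03% as lower. The median over the 37 genes was -0.09 and that over all genes was -0.0012, which became 0.31 and 0.38 with median scaling. Ccnd2 was at least 1.25-fold lower in Neurog1-Ctrl (adjusted p = 0.00661), with -0.18 from the dimmest of its 3 probes. With 3 Neurog1-Ctrl and 2 Sox2GBC arrays of 1 noise class, 4 genes were called. The other 34 genes did not pass the test: Mcm2 differed by -0.27 ± 0.35 (adjusted p = 0.665), Mcm5 by -0.18 ± 0.38 (adjusted p = 0.807) and E2f1 by 0.31 ± 0.30 (adjusted p = 0.555). These p-values do not show that the levels were equal. Sustentacular markers were lower in Neurog1-Ctrl than in Sox2GBC for 6 of the 8 measured, as were 5 of 7 horizontal basal cell markers and 4 of 5 markers of Bowman's glands. Their part in the Ccnd1 difference was not tested.

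Against whole mucosa, Sox2GBC had 2 genes higher, Mcm7 and Pole, and 1 lower, Ccnd2, with 32.8% of all genes called, 16.9% as higher and 15.9% as lower. Ccnd2 differed by -2.60 ± 0.28, adjusted p = 3.38e-06, a 6.08-fold lower signal, and by -1.02 with the dimmest of its 3 probes. Markers of several cell types moved with it. Of those measured, 8 of 8 myeloid and 8 of 10 mature neuron markers were lower in Sox2GBC, and none was higher. For horizontal basal cells 5 of 7 were lower and 1 was higher. In OM these lists lay 2.67, 0.88 and 1.83 above the 21-array mean. The part of such cells in the Ccnd2 level of OM was not tested. Mcm7 differed by 1.09 ± 0.29, adjusted p = 0.00793, and its second probe by -0.06. Pole, detected on 1 of 3 OM arrays, differed by 1.24 ± 0.42, adjusted p = 0.0313. That call was lost under 10 of 20 alternatives, among them cyclic loess, median scaling and leaving out any 1 Sox2GBC array. The number of genes called ran from 1 to 11 over the settings tried.

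Signal in Sus was higher than in Sox2GBC for 11 of the 37 genes and lower for 2, where 52% of all genes were called, 23.1% as higher and 28.8% as lower. The share of the 37 called in either direction, 35.1%, was thus below that of all genes. The median over the 37 was 0.31, and that over all genes was -0.12. Among the 23 genes detected on every mucosa array, 6 were higher and 2 lower, with a median of -0.0056. Ccnd1 led, 3.57-fold higher in Sus (1.84 ± 0.31, adjusted p = 7e-05), and its 3 Sus arrays lay close together. Cdk2, with values of 10.01 to 11.12 in Sus, was higher by 1.67 ± 0.31, adjusted p = 0.000159. Tyms, at 8.87 to 10.08, was higher by 1.72 ± 0.32, adjusted p = 0.00019. Pcna was at least 1.5-fold higher (adjusted p = 0.000916), and Tk1, Cdc6, Mcm3, Mcm10, Uhrf1, Lig1 and Pola2 were higher by 0.68 to 1.70. The second probe of Tk1 moved by -0.13 and another probe of Lig1 by -0.23. Orc6 and Chaf1a were lower, with differences of -0.54 ± 0.15 and -0.65 ± 0.20 (adjusted p = 0.00526 and 0.0101). With the noise class as a block 17 genes were called, 15 as higher and 2 as lower. Within classes 19 were called, all as higher, but the first Sus array shares no class with Sox2GBC, so that this count leaves it out as well and rests on 1 Sus array in each of 2 classes.

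How many genes were called depended on the first Sus array. Without it 20 genes were called, 19 higher and 1 lower. Without replicate 2 there were 10 and without replicate 3 there were 13. Ccnd1, Cdc6, Cdk2, Mcm3, Orc6, Pcna, Tk1 and Tyms were called in all of these fits. The share of all genes called in them is not given here, so that a change particular to the listed genes cannot be read from the counts. Mcm10 shows the gap: it read 6.50, 9.13 and 9.09 on the 3 Sus arrays. Markers of globose basal and precursor cells moved with it, with a mean of -0.75 on the first Sus array and 0.77 and 0.95 on the others. Kit, a receptor of these cells, read 9.22, 11.17 and 11.17, and Top2a, a mitosis gene, read 8.31, 10.83 and 11.11. Against Sox2GBC, however, only 1 of the 8 measured precursor markers was higher in Sus, 2 were lower and 5 were not called. All 10 immature neuron markers were lower in Sus, where 28.8% of all genes were. The part of precursor cells in the Sus results was not tested. Against whole mucosa, a comparison added after the levels had been seen, Sus had 17 genes higher and 3 lower, with 48.5% of all genes called, 23.3% as higher and 25.2% as lower. The 3 lower ones were Ccnd2, Chaf1a and Orc6. Without Sus replicates 1, 2 or 3 in turn, 31, 9 and 11 genes were called, again with no share over all genes beside them. Within noise classes there were 5, from 1 Sus array in each of 2 classes, and with the class as a block 19. Whole mucosa contains sustentacular cells itself.

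Bulb removal moved none of the 37 genes past the threshold in either sorted population. In Neurog1-GFP cells 0.379% of all genes were called, 0.185% as higher and 0.194% as lower, and in OMP-GFP cells 8.66%, 4.25% as higher and 4.41% as lower. At an unadjusted p under 0.05, 4 of the 37 genes passed in Neurog1-GFP cells and 1 in OMP-GFP cells. With array weights, the count in Neurog1-GFP cells was 1. In these cells 26 of 37 differences were positive after bulb removal, with a median of 0.21 against -0.02 over all genes. With median scaling in place of quantile normalization, 18 of 37 were positive, and these medians were -0.0012 and -0.21. Arrays of the control and operated groups did not overlap for 13 of the 37, against 23% of all genes. Cdk2 differed most, with 8.08 to 8.59 in Neurog1-Ctrl and 9.07 to 9.49 in Neurog1-OBX, arrays that did not overlap (0.90 ± 0.31, adjusted p = 0.26). Mcm3 differed by 0.83 ± 0.38, adjusted p = 0.467, Ccnd1 by 0.71 ± 0.31, adjusted p = 0.446 and E2f1 by 0.56 ± 0.30, adjusted p = 0.546. Rfc3 went the other way, by -0.72 ± 0.29, adjusted p = 0.377. In OMP-GFP cells, 16 of 37 differences were positive, with a median of -0.02. With median scaling 9 of 37 were positive, with a median of -0.28, where the median of all genes was -0.19. Mcm2 differed by -0.78 ± 0.35, adjusted p = 0.193, with OMP-OBX arrays in part within the OMP range. Tyms differed by 0.60 ± 0.32, adjusted p = 0.306. The effect of bulb removal did not differ between the populations for any of the 37 at an adjusted p under 0.05 in limma's interaction term, which called 1.97% of all genes, 0.699% as higher and 1.27% as lower. At an unadjusted p under 0.05 there were 2.

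Whole mucosa was far below the cell-line reference for nearly all of the genes. Of the 39 measured over 24 arrays, 37 were lower in OM than in mREF and 1 was higher, where 66.2% of all 12495 genes were called, 31.8% as lower and 34.4% as higher. The median of the 39 was -2.62, against 0.05 over all genes. Cdt1 differed by -4.25 ± 0.33, adjusted p = 2.28e-10, Tk1 by -4.24 ± 0.37, adjusted p = 1.34e-09 and Gins2 by -4.23 ± 0.31, adjusted p = 8.9e-11. Dut was the 1 gene higher in mucosa, by 0.54 ± 0.22, adjusted p = 0.0363, and Rfc2 was not called (-0.24 ± 0.14, adjusted p = 0.126). Of the genes not seen in mucosa, Orc1 averaged 6.83 ± 0.66 and Ccne2 7.84 ± 0.22 in mREF (SD over 3 repeats). Prim1 was detected on 2 of 3 mREF arrays, and Pola1 and Pole2 on none, so that their probes were not above the limit in this RNA either. The mREF arrays are repeats of 1 RNA, and their spread is that of the assay.

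In 5 lists of other genes of the same pathways, 25 of 50 measured genes were lower in OMP than in Neurog1-Ctrl, 3 were higher and 22 were not called, against the 18.1% of all genes lower and 17.9% higher in that comparison. Of the measured origin and licensing genes 4 of 7 were lower and none was higher, among them Dbf4, the activator of the Cdc7 kinase, at -2.65, while Cdc7 gave -0.38 (adjusted p = 0.396). Of 9 further helicase and fork genes 6 were lower, with Chtf18 of an alternative clamp loader at -2.44, Timeless of the fork protection complex at -2.30, the checkpoint mediator Clspn at -1.63 and the helicase Recql4 at -1.07. Among 9 other polymerase, loader and RPA genes 4 were lower, with the primase subunit Prim2 at -1.61. Of 7 genes of nucleotide and histone supply 5 were lower and 1 higher. The histone chaperones Asf1b and Nasp gave -1.63 and -1.27, and the nucleoside kinase Dck gave -0.99. The 1 higher gene, named after its value was seen, was Samhd1, which degrades dNTPs, at 0.63. The 18 other G1/S regulators divided into 6 lower and 2 higher. The Cdk inhibitor Cdkn1c gave -3.25, E2f2 -2.41 and Cdk4 -1.85, against 1.05 for cyclin D3, Ccnd3.

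Mitosis genes were lower as well: 13 of 15 measured were lower in OMP than in Neurog1-Ctrl, 10 of 15 lower than in Sox2GBC and 12 of 15 lower in OMP-OBX than in Neurog1-OBX, none being higher. Top2a, Birc5, Cdc20 and Nusap1 differed by -2.86 to -2.95 between OMP and Neurog1-Ctrl. In Sus against Sox2GBC, 11 of 15 mitosis genes were higher and none lower, where 23.1% of all genes were higher and 28.8% lower. Of the 50 genes in the 5 other replication and G1/S lists, 9 were then higher and 13 lower. Among these, the 18 other G1/S regulators gave 5 higher and 6 lower. Cdk6, a partner of the D cyclins, gave 1.86, the Cdk inhibitors Cdkn2d and Cdkn1a gave -1.75 and -1.56, and the retinoblastoma gene Rb1 gave -1.51. In Sox2GBC against OM, Timeless and Chtf18 were higher by 2.07 and 1.87, while none of the 15 mitosis genes was called. Bulb removal called no gene of these 6 lists in Neurog1-GFP cells. In OMP-GFP cells it called 2 of the G1/S regulators, Cdkn1c at 1.60 and Ccnd3 at -0.80, and none of the other 5 lists. In the same cells, 2 of 8 measured precursor markers were called as higher after bulb removal, Insm1 at 2.09 and Sox11 at 1.50, and 6 were not called. Of 10 immature neuron markers 5 were higher and 5 were not called, where 4.25% of all genes were higher. The part of such cells in the Cdkn1c and Ccnd3 differences was not tested.

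**Figure D4:**
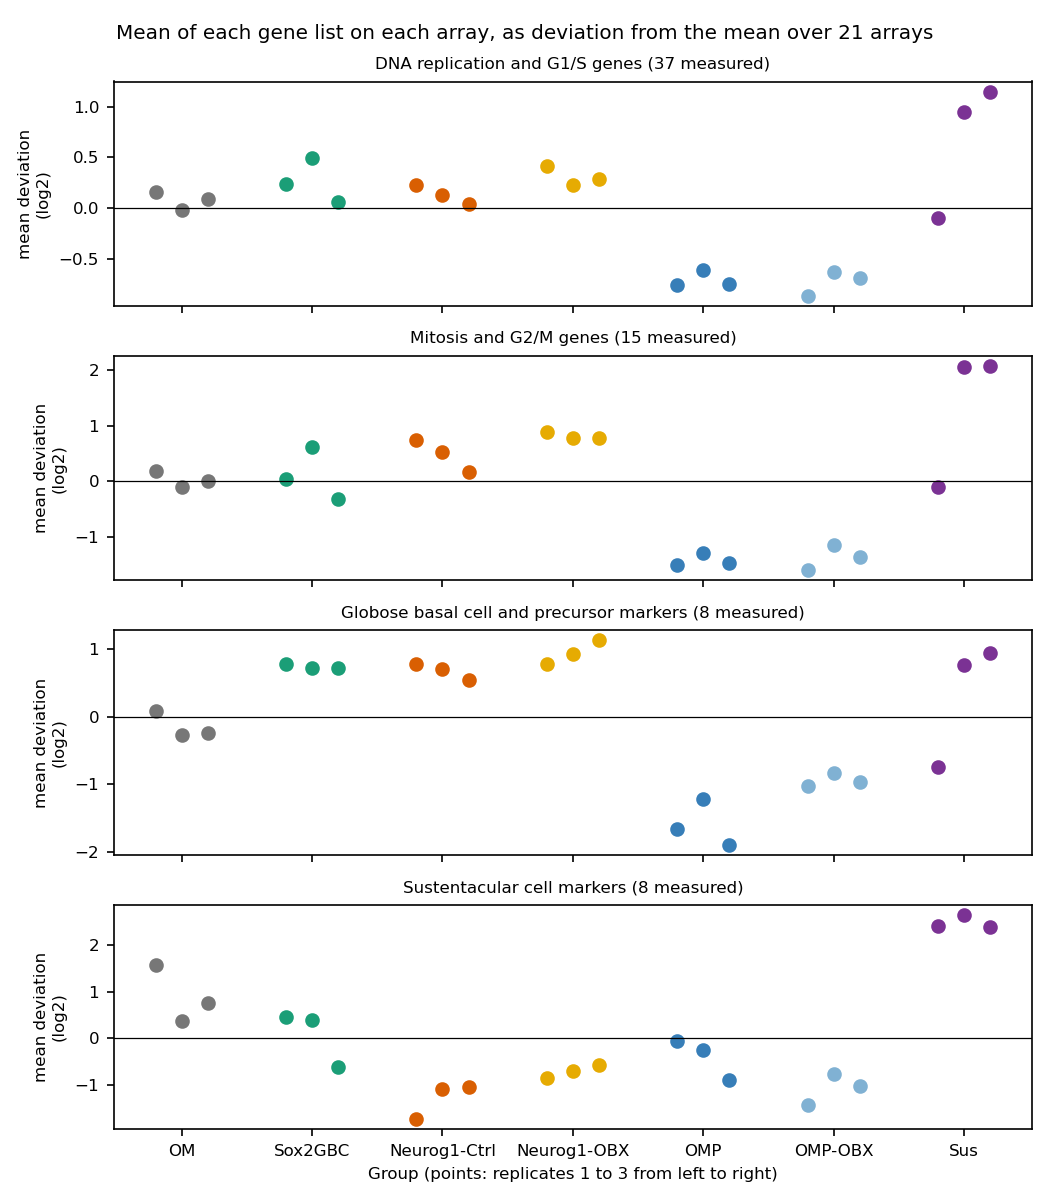
Mean of each gene list on each mucosa array as the deviation from the mean over 21 arrays (log2), for the 37 replication and G1/S genes, 15 mitosis genes, 8 precursor markers and 8 sustentacular markers. The first Sus array lies at -0.10, -0.11 and -0.75 in the first 3 lists, below the other Sus arrays, and at 2.42 for sustentacular markers, level with them.

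Calls and promoter sites were set side by side as a description. Of the 22 genes lower in OMP than in Sox2GBC, 18 had a promoter window and 8 of these held an E2F match. Of the 15 measured genes not called there, 12 had a window and 3 held a match, and of the 5 genes that did not pass the filter, 4 had a window and 3 held one. Mcm5, Mcm6 and Mcm7, whose windows are printed above, were among the 22, and Mcm3 was among the 15.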

How the data were processed

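RNA of each sample was read on 1 Illumina bead array after column extraction and biotinylated cRNA synthesis, per the labels' protocols. The authors deposited probe intensities, each with its detection p-value. GenomeStudio is named in the submitters' processing notes, and no source states whether it normalized these intensities. From these values, normexp background correction driven by the detection p-value (offset 16), quantile normalization and log2 were run in limma 3.58.1 (R 4.3.3), on the 21 mucosa arrays or, against mREF, on all 24. A probe stayed in if its detection p-value was under 0.01 on 3 or more arrays, the brightest per gene was used, and all groups were fitted together with lmFit and eBayes. Calls are Benjamini-Hochberg adjusted p under 0.05 over all 11870 or 12495 genes. Deposited intensities averaged 215 to 722 per array, and the number of arrays limits the precision. Where a group had no detected array, a fold is given as a bound from the lowest detected signal. The labels do not say whether replicates came from separate animals, so that p-values measure the spread between these samples. The column for the third OMP sample carries number 4. Samples of different groups share a replicate number and nothing else that the labels state. The fit was tested on simulated data. The list of 42 genes and the other gene lists were drawn up with earlier results of these data known, and no threshold on values chose the members. By the rule used, every array is given for Mcm2 to Mcm7, Pcna, Ccnd1, Ccnd2, E2f1 and the 2 brightest members of each other role group. Other pathway genes are limited per list to 4 called ones with the largest differences and 2 not called. Motif searches used Python 3.11.15.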

Additional observations from a re-analysis of the deposited data

How the results depend on the processing

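Each count was recomputed with other background, scaling, filter, probe and design choices and without each replicate; within-noise-class arrays, second probes and Sus minus OM were added after seeing the data. Of 225 recomputed counts, 205 stayed within 1.5 times the count reported and 20 did not. Array weights gave 6 calls for Neurog1-Ctrl minus Sox2GBC, 11 for Sox2GBC minus OM and 1 for Neurog1-OBX minus Neurog1-Ctrl. Median scaling gave 13 for OMP minus Sox2GBC, 1 for Sox2GBC minus OM and 9 for Sus minus OM. It also moved the median of all genes to 0.38 for Neurog1-Ctrl minus Sox2GBC, 0.23 for OMP minus Sox2GBC, -0.26 for Sox2GBC minus OM, -0.21 for Neurog1-OBX minus Neurog1-Ctrl, -0.19 for OMP-OBX minus OMP, -0.16 for Sus minus OM and 0.24 for OM minus mREF. The share of higher calls over all genes then became 77.04% (from 46.9%), 70.55% (48.37%), 22.38% (51.44%), 34.69% (48.89%), 22.87% (49.03%), 34.44% (47.96%) and 61.52% (51.95%). Cyclic loess gave 35.45% for Neurog1-Ctrl minus Sox2GBC and 60.39% (49.73%) for OMP minus Neurog1-Ctrl. Fitting only the compared groups gave 7 for Sus minus Sox2GBC and 8 for Sus minus OM. Sox2GBC minus OM had 5 calls with no background correction, with an offset of 50 and with the authors' processed values, and 9 within noise classes (2 arrays a group), where Sus minus OM had 5, from single Sus arrays. The second brightest probe gave 1 for OMP-OBX minus OMP and turned the sign of Rpa2 in OMP minus Neurog1-Ctrl (0.060), Rfc4 in OMP minus Sox2GBC (0.18), Mcm7 (1.09) and Tk1 (-0.13) in Sus minus Sox2GBC and Mcm7 in Sox2GBC minus OM (-0.056). The causes were not tested. Without each replicate in turn, counts ran from 2 to 3 (Neurog1-Ctrl minus Sox2GBC), 15 to 21 (OMP minus Neurog1-Ctrl), 19 to 24 (OMP minus Sox2GBC), 10 to 20 (Sus minus Sox2GBC), 2 to 3 (Sox2GBC minus OM), 18 to 22 (OMP-OBX minus Neurog1-OBX), 9 to 31 (Sus minus OM) and 37 to 38 (OM minus mREF); without OM replicate 2 or 3, Sus minus OM had 12. They stayed at 0 for bulb removal and its interaction. With the replicate number as a block, all counts were as without it except Sox2GBC minus OM, with 4. In no comparison of 2 mucosa groups did the deviations from the group mean correlate above 0.1 in all 3 pairs of arrays with the same number. This does not show that the samples were unpaired. The first arrays of OM, OMP, Sus and mREF shared a noise class, and so did the second arrays of Sus and mREF. Calls kept under every alternative were Ccnd1 and Ccnd2 for Neurog1-Ctrl minus Sox2GBC; Mcm2, Mcm5, Cdt1, Gins1, Rfc3, Tyms, Chaf1b, Ccnd2, Cdk2 and E2f1 for OMP minus Neurog1-Ctrl; and Mcm2, Mcm6, Cdt1, Gins1, Chaf1b, Uhrf1, Ccnd1, Cdk2 and E2f1 for OMP minus Sox2GBC. In Sus minus Sox2GBC they were Cdc6, Pcna, Tyms, Ccnd1 and Cdk2. Of the genes named, Mcm2, Mcm5, Cdt1, Gins1, Rfc3, Chaf1b, Uhrf1, E2f1, Cdc6 and Pcna had only 1 probe that passed the filter. The second brightest probe and the mean of probes read that same probe again, so that these 2 settings gave no further reading of them.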
